A study of Bos taurus with 8 samples.

Results

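*GATA3* and *ASCL2* encode transcription factors of the trophoblast, the cell lineage that forms the outer wall of the blastocyst and later the fetal part of the placenta. They were followed here through every array probe that the platform annotation assigns to them, which gave 2 of the 12552 genes named on the array and 3 of its 43653 gene probes: 2 for *GATA3* (BTAA004570 and BTAA031940) and 1 for *ASCL2* (BTAA018716). The samples were bovine embryos made by in vitro fertilization, with oocytes from slaughterhouse ovaries and the sperm of a single bull: morulae of day 5, and whole blastocysts, inner cell masses (ICM) and trophectoderm (TE) of day 9, with 2 samples in each of the 4 groups. Every sample was a pool of embryos or embryo parts, and none of these groups received a treatment. ICM and TE were cut apart by hand from the same embryos with tungsten needles, a method that leaves part of the TE attached to the ICM. All 8 samples were hybridized on two-colour arrays against a common pool of blastocyst RNA, replicate 1 in Cy3 and replicate 2 in Cy5, so that each level is relative to the pool and stated as a log2 ratio.

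GATA3 is a zinc finger protein that binds GATA sequences in DNA. In the mouse embryo it acts in the outer cells, downstream of the TEAD factor that the Hippo pathway controls, and promotes trophectoderm genes. ASCL2, also known as MASH2, is a basic helix-loop-helix (bHLH) protein that binds DNA together with a ubiquitous partner of the same class. The mouse placenta needs it for its spongiotrophoblast, and in that species the gene lies in an imprinted domain and is read from the maternal copy.

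Across the 8 arrays the median intensity of the sample channel was 229.9 to 536 over a median background of 47.5 to 60.1, and between 90.3% and 94.8% of gene probes were detected on an array. The replicates correlated at 0.92 in morulae, 0.37 in ICM and 0.52 in TE over all gene probes, but at -0.55 in blastocysts. The study lists the blastocyst samples as the same material as its blastocyst pools, so they were not independent of the reference, which bears on each comparison with blastocysts. The label of the dissected parts was checked with marker genes: all 4 measured epiblast markers were lower in TE than in ICM, *NANOG* 13.2-fold (adjusted p = 0.00330) and *SOX2* 8.67-fold (adjusted p = 0.00330). A gene counts as measured here where a probe carries its symbol in the annotation used, and genes without one were not analysed here. This left *PAG2* alone of the 6 TE markers, at 2.12-fold more in TE (adjusted p = 0.0462). The check made here thus rests on 1 TE marker and on the low epiblast markers. The study has further evidence for the TE label: it reports *CDX2* and *KRT18* highest in TE on the arrays and by quantitative PCR. It also found every cell of its stained TE samples positive for CDX2 protein.

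The *ASCL2* transcript was scarce in morulae and plentiful in every day 9 sample. The log2 ratios to the pool were -3.66 and -4.40 in morulae, 0.03 and -0.43 in blastocysts, -0.20 and -0.22 in ICM, and 0.31 and 0.54 in TE. Both morula samples lay far below the other 6, and both TE samples lay above all others. The spot intensities before normalization showed the same gap, with 206 and 137 in morulae against 1492 and 2329 in blastocysts, 834 and 1841 in ICM, and 2205 and 4069 in TE, while the pool on these arrays gave 1234 to 2275. In the second morula sample the spot reached only 2.29 times its local background and did not pass the detection limit (mean background plus 2 SD), so that the low level was measured in 1 of the 2 morula samples.

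*ASCL2* rose 14.3-fold from morula to blastocyst (95% confidence interval 9.67 to 21.0, log2 difference 3.83 with a standard error of 0.23, limma adjusted p = 1.32e-04), and the replicate-matched log2 differences were 3.69 and 3.97. Of the 12552 genes tested, 17.4% passed the test (adjusted p under 0.05 and at least 2-fold) in this comparison, 10.2% with more in blastocysts, and 68 genes had a larger rise than *ASCL2*. Against morulae the gene was 21.9-fold higher in TE (interval 14.9 to 32.3, adjusted p = 6.53e-05), where 11.1% of genes were called higher, and 14.1-fold higher in ICM (interval 9.58 to 20.8, adjusted p = 1.53e-04), where 9.97% were. These 3 comparisons share the morula samples. The size of the rise depended on the processing. It was smaller with normexp, a correction for the local background that was run here with an added offset of 50. The log2 differences were then 2.63 for blastocyst, 3.19 for TE and 2.63 for ICM, and all 3 passed the test. The correction was not run without the offset, so the part of either was not tested.

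**Figure D1:**
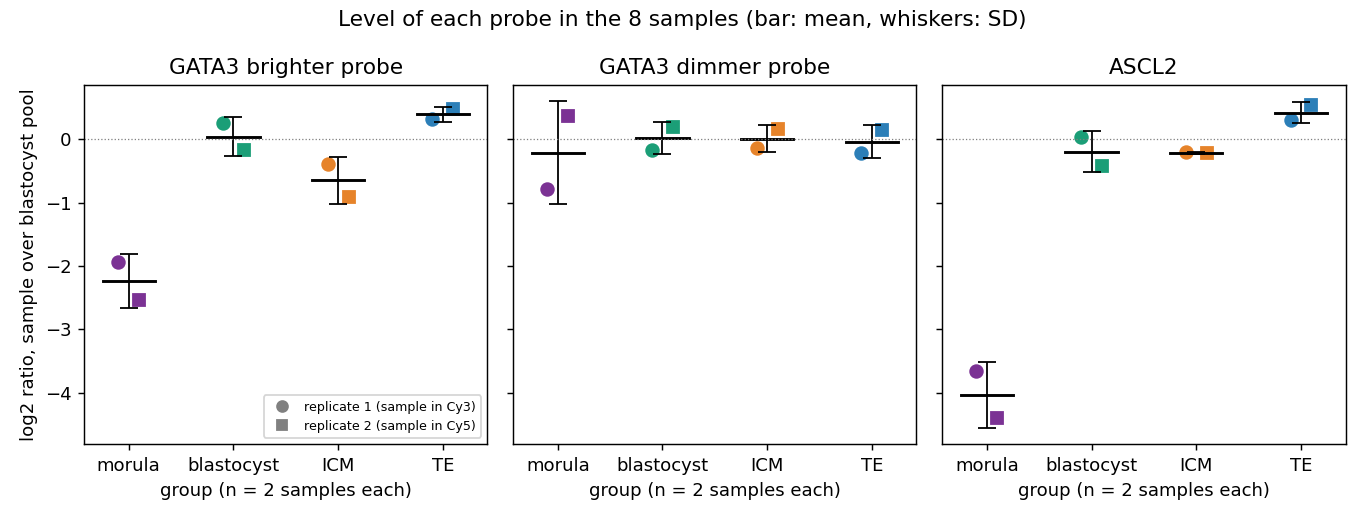
Log2 ratio of each sample over the blastocyst pool (y axis) for the 3 probes in the 4 groups (x axis); circles are replicate 1, squares replicate 2, bars the mean and whiskers the SD of 2 samples. The brighter *GATA3* probe and *ASCL2* were lowest in both morula samples, at -1.93 and -2.54 and at -3.66 and -4.40, whereas the dimmer *GATA3* probe stayed within -0.79 and 0.36 throughout.

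The brighter *GATA3* probe was also lowest in morulae and highest in TE, with a smaller range. Its log2 ratios were -1.93 and -2.54 in morulae, 0.26 and -0.18 in blastocysts, -0.39 and -0.91 in ICM, and 0.31 and 0.48 in TE. No ICM value reached a blastocyst or TE value, and both morula values lay below all others. Unlike the *ASCL2* spot, this spot was well above its background in morulae, with intensities of 1495 and 1512 or 21.6 and 34.0 times the local background.

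*GATA3* rose 4.86-fold from morula to blastocyst on this probe (interval 3.50 to 6.74, log2 difference 2.28 with a standard error of 0.19, adjusted p = 3.96e-04), and 328 genes rose more. The replicate-matched log2 differences were 2.20 and 2.36. Against morulae it was 6.21-fold higher in TE (interval 4.48 to 8.61, adjusted p = 1.86e-04) and 3.00-fold higher in ICM (interval 2.16 to 4.17, adjusted p = 0.00161). In such pooled samples, fewer cells of a type and less RNA per cell cannot be told apart.

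**Figure D2:**
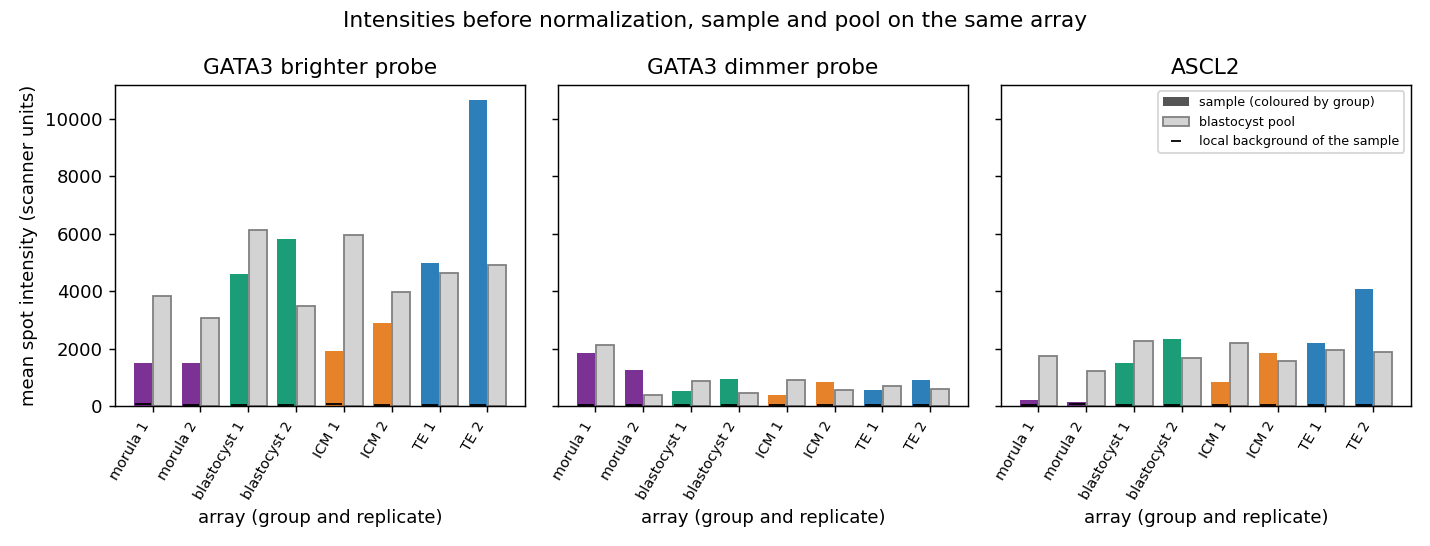
Mean spot intensity before normalization (y axis, scanner units) for the sample (coloured bar) and the blastocyst pool (grey bar) on each of the 8 arrays (x axis), with the local background as a black dash. The *ASCL2* sample bars of the morula arrays, 206 and 137, stand just above the background, whereas the pool bars beside them reach 1757 and 1234.

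The second *GATA3* probe did not follow the first. Its log2 ratios were -0.79 and 0.36 in morulae, -0.16 and 0.19 in blastocysts, -0.14 and 0.16 in ICM, and -0.22 and 0.14 in TE, and the groups overlapped in all 6 comparisons. On the array of the first morula sample the pool read 2145 at this spot, against 375 to 918 on the other arrays. Replicate 1, with the sample in Cy3, was below 0 and replicate 2, with the sample in Cy5, above 0 in each group, and the fitted dye effect was 0.54 on the log2 scale, against -0.35 for the brighter probe and -0.25 for *ASCL2*. The morula to blastocyst log2 difference was 0.23 (adjusted p = 0.510), and the fold of 1.17 had an interval of 0.812 to 1.69, which does not reach the rise of the brighter probe. Without the first morula sample the log2 difference was -0.18.

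Both *GATA3* probes were above background on all 8 arrays, at the 87.3rd and the 65.4th percentile of intensity among gene probes, and *ASCL2* was at the 74.5th. Such a split between probes was common on this array. In 1670 of the 8435 genes with several probes the brightest probe was called between blastocyst and morula, and in 655 of them (39.2%) the next brightest probe was called the same way. For TE against ICM it was 49 of 156 (31.4%). Where on the transcript a probe binds was not analysed here, so the *GATA3* results below are those of the brighter probe.

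Between the 2 parts of the blastocyst, the brighter *GATA3* probe passed the test, higher in TE, and *ASCL2* did not. The dimmer *GATA3* probe had a log2 difference of -0.05 (adjusted p = 0.973). Whether the 2 genes differ from each other in this was not tested. *GATA3* was 2.07-fold higher in TE than in ICM (interval 1.49 to 2.87, log2 difference 1.05, adjusted p = 0.0496), with replicate-matched log2 differences of 0.70 and 1.40. Only 0.231% of genes were called higher in TE, 29 in all, against 1.33% called higher in ICM, and 28 genes had a larger difference toward TE than *GATA3*. The call stood at the threshold. It was lost in 7 of the 8 fits that left out 1 array (log2 difference 0.70 to 1.39, adjusted p 0.0486 to 0.312) and held only without the first TE sample: the adjusted p was 0.0646 without either morula sample, 0.0692 without either blastocyst sample, 0.207 and 0.312 without the first and the second ICM sample and 0.147 without the second TE sample. It was also lost without the replicate block (adjusted p = 0.120), with the background corrected (adjusted p = 0.207) and in a fit to the 4 arrays of ICM and TE alone (adjusted p = 0.0748).

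*ASCL2* was 1.55-fold higher in TE than in ICM (interval 1.05 to 2.29, log2 difference 0.63, adjusted p = 0.242), with replicate-matched log2 differences of 0.51 and 0.76. The *ASCL2* values were 0.31 and 0.54 in TE against -0.20 and -0.22 in ICM. The TE and ICM samples overlapped for neither gene. The share of all genes without such overlap was not counted, so this adds no support to a difference. On average *ASCL2* in ICM stood at 0.644 and *GATA3* at 0.484 of their TE level. The trophoblast product *PAG2* stood at -0.58 and -0.14 in the same ICM samples and at 0.67 and 0.78 in TE. The part that TE cells attached to the ICM have in these levels was not tested. The mean log2 ratio of the 4 measured epiblast markers (of 6) was 0.91 and 1.12 in ICM and -1.58 and -1.56 in TE. Between TE and ICM, 0 of the 5 measured primitive endoderm markers (of 8) and 0 of the 3 measured cumulus cell markers (of 5) were called, where 1.56% of all genes were. Of these 8, 0 had an unadjusted p under 0.05, against 21.8% of all genes. The count for primitive endoderm says little of that cell type, since the brightest probes of *HNF4A* and *SOX17* were dim (41.0th and 38.9th percentile of intensity) and 3 of the 8 genes were not analysed here. The study also found every cell of its stained TE samples positive for GATA6 protein, so *GATA6* may not separate primitive endoderm from TE here. With its own choice of probes, the study lists *HNF4A* and *PDGFRA* among its genes of largest difference, both higher in ICM.

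The mean levels of *GATA3* ran in the order TE, blastocyst, ICM and morula, and those of *ASCL2* had TE highest and morula lowest, with blastocyst and ICM overlapping between them. Taking TE as 1, *GATA3* was at 0.782 in blastocysts, 0.484 in ICM and 0.161 in morulae, and *ASCL2* at 0.650, 0.644 and 0.0456. The upper steps of this order did not pass the test: TE against blastocyst gave 1.28-fold for *GATA3* (interval 0.921 to 1.77, adjusted p = 0.700) and 1.54-fold for *ASCL2* (interval 1.04 to 2.27, adjusted p = 0.465), in a comparison where 0.0478% of all genes were called. From blastocyst to ICM *GATA3* was 1.62-fold lower (interval 1.17 to 2.24, adjusted p = 0.230) and the *ASCL2* ratio of ICM to blastocyst was 0.990 (interval 0.672 to 1.46, adjusted p = 0.997), a log2 difference of -0.01 that turned to 0.13 without the first blastocyst sample, 0.14 without the first ICM sample and 0.0013 with the background corrected, where 0.104% of genes were called. The step from ICM down to morula passed the test for both.

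**Figure D3:**
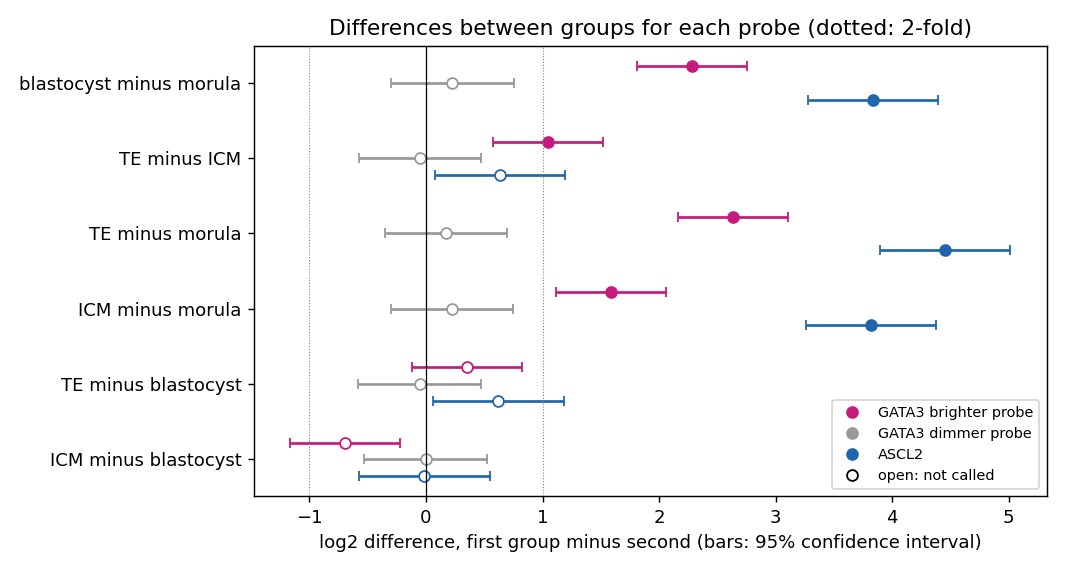
Log2 difference between groups (x axis, first group minus second) with its 95% confidence interval for the 3 probes in the 6 comparisons (y axis), filled where the test was passed; dotted lines mark 2-fold. All 3 comparisons with morulae were passed by *ASCL2* and the brighter *GATA3* probe, TE minus ICM by the brighter *GATA3* probe at 1.05, and none by the dimmer probe.

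Among the relatives of *GATA3*, the 5 other GATA factors measured and the FOG cofactors that bind them, 1 of 7 rose from morula to blastocyst (10.2% of all genes) and none fell. This was *GATA2*, the other GATA factor of the trophoblast, with log2 ratios of -3.20 and -3.58 in morulae, -0.10 and -0.03 in blastocysts, -0.27 and -0.04 in ICM, and 0.22 and 0.59 in TE. It rose 10.0-fold (adjusted p = 1.06e-04, log2 difference 3.32 with a standard error of 0.18) on a probe whose pool spot was saturated on 1 blastocyst array, and its second probe gave 4.92-fold (adjusted p = 7.42e-05), while the 2 dimmest of its 4 probes were at 1.09-fold and 1.30-fold. *GATA4* and *GATA6*, factors of the primitive endoderm, had log2 differences of 0.45 and -0.90, and the FOG cofactor *ZFPM1* of 0.58, none of them called. Of the 7, 0 were called between TE and ICM by limma or by the F2 test of the study. Only 1 had an unadjusted p under 0.05, against 21.8% of all genes. This one, *GATA2*, was at 1.47-fold (adjusted p = 0.199) on its brightest probe. Its second probe gave a log2 difference of 0.74 (adjusted p = 0.0293), short of 2-fold, and the 2 dimmest gave -0.18 and 0.26.

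Of the 22 other measured transcription factors of the trophoblast, 6 rose from morula to blastocyst and 0 fell, where 10.2% of all genes rose and 7.15% fell, with a median log2 difference of 0.34 against 0.04 over all genes. Besides *GATA2*, which both lists hold, they were *GRHL1*, a grainyhead factor of epithelia, at 23.8-fold, *TFAP2A*, an AP-2 factor detected in 1 of the 2 morula samples, at 11.6-fold, *ARID3A*, an AT-rich interaction domain protein, at 5.78-fold, the ETS factor *ELF5* at 3.19-fold and the zinc finger factor *OVOL1* at 2.72-fold (adjusted p 4.33e-05 to 0.00153). *GRHL1* had the widest range, from -4.41 and -4.84 in morulae to 0.42 and 0.64 in TE. The AP-2 factor *TFAP2C*, saturated on 5 of the 8 arrays, was at a log2 difference of -0.30 and the Krüppel-like factor *KLF5* at 0.84, neither of them called. The other probe of *TFAP2A* gave 1.08-fold, and the other 2 of *GRHL1* gave 1.06-fold and 1.38-fold, so for these genes too the rise rests on the brightest probe.

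Between TE and ICM 0 of these 22 factors were called by limma or the F2 test, where the calls over all genes amounted to 1.56%, and at an unadjusted p under 0.05 there were 7, of which 6 were higher in TE, against 21.8% of all genes. Their median log2 difference was 0.05, against -0.01 over all genes. *GRHL1* (log2 difference 0.92, adjusted p = 0.0565) and *TFAP2A* (0.90, adjusted p = 0.0589) had differences close to that of *GATA3*, and *OVOL1* was at 0.60. Against morulae the ICM samples gave calls for 8 of the 22, among them *GRHL1* at 18.7-fold, *GATA2* at 9.43-fold and *TFAP2A*, with the same limit in morulae, at 8.36-fold, where 9.97% of all genes were called higher.

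**Figure D4:**
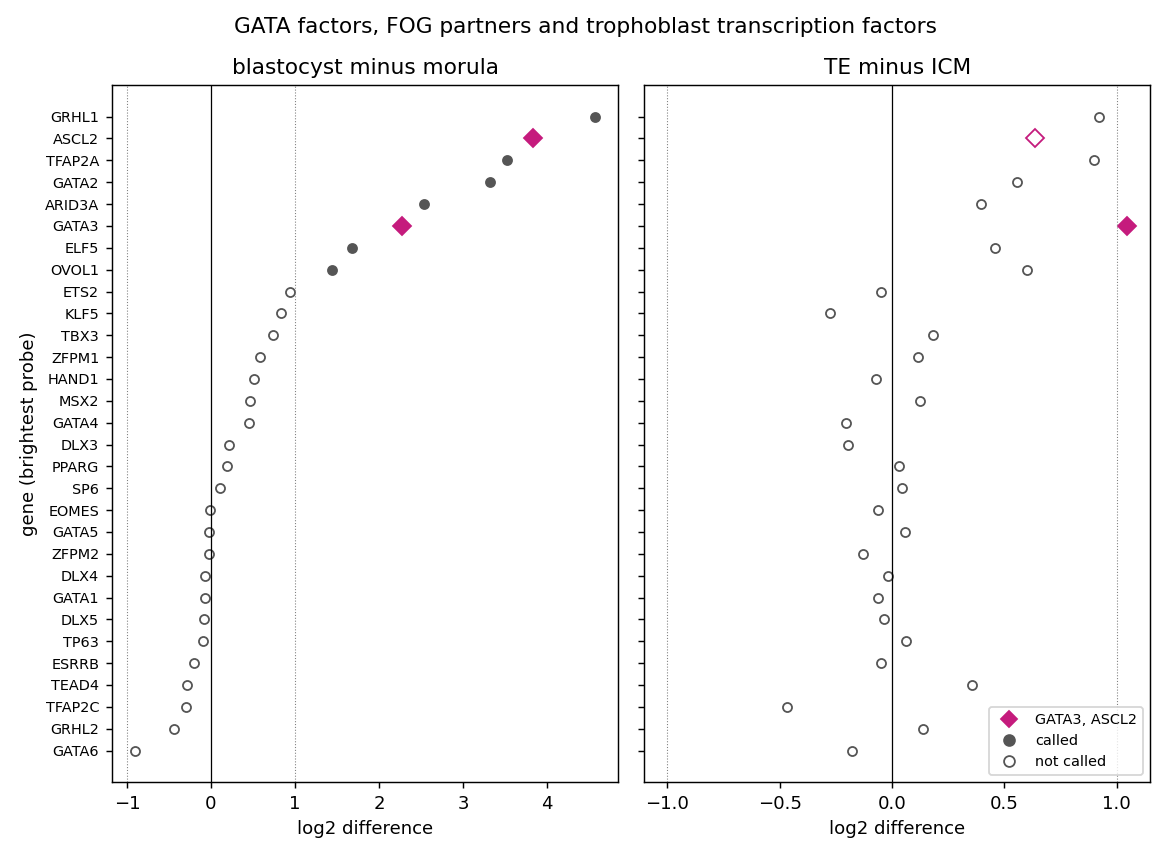
Log2 difference (x axis) of *GATA3*, *ASCL2*, the GATA factors, their FOG cofactors and other trophoblast transcription factors (y axis, brightest probe of each gene), on the left from morula to blastocyst and on the right from ICM to TE; filled points passed the test. From morula to blastocyst *GRHL1* (4.57) and *ASCL2* (3.83) head the order, and from ICM to TE *GATA3* (1.05) is the only filled point among the genes drawn, which do not include *CDX2*.

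Among the bHLH partners and inhibitors of *ASCL2*, 1 of 6 was called in each of the 2 main comparisons. ID proteins lack a DNA-binding part and hold the partner proteins in inactive pairs. *ID3* fell 6.20-fold from morula to blastocyst (adjusted p = 0.00441), from log2 ratios of 2.68 and 3.33 in morulae to 1.03 and -0.29 in blastocysts, with the sample spot above background in 1 of 2 samples of either group. It was the only call among the 6 genes measured, where 7.15% of all genes were called lower in blastocysts. *ID1* and *ID2* were at log2 differences of 0.75 and 0.72, and the partner *TCF3* was at 0.02.

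Between TE and ICM, 1 of these 6 genes was called, where 1.33% of all genes were called higher in ICM. At an unadjusted p under 0.05 there were 3 of the 6, all lower in TE, where 10.4% of all genes were. *ID1* was 7.12-fold lower in TE (adjusted p = 0.00576, log2 difference -2.83 with a standard error of 0.22), with 1.10 and 0.98 in ICM against -1.44 and -2.15 in TE, and its dimmer probe was also lower, with a log2 difference of -0.90 (adjusted p = 0.0247). *ID3* was at a log2 difference of -1.51 (adjusted p = 0.133), with the sample spot above background in both ICM samples and in 1 TE sample. The study, with its own choice of probes, reports *ID1* and *ID3* higher in ICM. *TCF3* was at -0.78 (adjusted p = 0.0620) on the brightest of its 6 probes and between -0.37 and 0.02 on the others. The relatives *ASCL3* and *ASCL4* were at 0.19 and -0.08 and were not called, in TE against ICM or from morula to blastocyst (0.32 and 0.04).

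In the ARS-UCD2.0 annotation of RefSeq, *ASCL2* lies between *TSPAN32* and *TH*, with *INS* and *IGF2* beyond *TH*. The genome build of the array design is not given in the sources used here, so the annotation served for gene order only. Of the 9 genes of this domain that were measured, 1 rose and 1 fell from morula to blastocyst, close to the 10.2% and 7.15% over all genes. *CDKN1C*, a cell cycle inhibitor that is imprinted in the mouse and human, rose 3.46-fold (adjusted p = 0.00446), with -1.77 and -2.02 in morulae against 0.44 and -0.65 in blastocysts. *PHLDA2*, an imprinted gene that restrains placental growth in the mouse, fell 3.65-fold (adjusted p = 7.52e-04), from 1.75 and 2.06 to 0.16 and -0.09. The direct neighbours *TSPAN32*, a tetraspanin, and *TH*, tyrosine hydroxylase, were at log2 differences of 0.75 and 0.05, and the growth factor gene *IGF2* at 0.36, without a call. Of the 9, 0 were called between TE and ICM by limma or the F2 test, and 3 had an unadjusted p under 0.05, against 21.8% of all genes.

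In the Hippo pathway, which lies upstream of *GATA3* in the mouse, 1 of 18 measured genes rose and 1 fell from morula to blastocyst, no more than the 10.2% and 7.15% over all genes. *WWTR1*, the TEAD coactivator also called TAZ, fell 3.90-fold (adjusted p = 7.68e-05), from 1.95 and 2.08 in morulae to -0.01 and 0.11 in blastocysts, and both of its probes were called. *CYR61*, a matricellular protein and known TEAD target, rose 3.60-fold (adjusted p = 0.00123) on the brighter of its probes, and the other gave 1.19-fold (adjusted p = 0.614). Of the 18, 0 were called between TE and ICM by limma or the F2 test. At an unadjusted p under 0.05 there were 11 of the 18, a larger share than the 21.8% of all genes, with 7 higher in TE and 4 lower. Another TEAD target, *CTGF*, was at 1.74-fold there (adjusted p = 0.0400), short of the 2-fold limit, and its other probe had a log2 difference of 0.49 (adjusted p = 0.233). *WWTR1* went the other way, lower in TE, with log2 differences of -0.91 (adjusted p = 0.0124) and -0.65 (adjusted p = 0.0340) on its probes, also short of 2-fold.

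Of the 19 trophoblast products measured, 9 rose from morula to blastocyst and 0 fell, where 10.2% of all genes rose and 7.15% fell, with a median log2 difference of 0.93. *PAGE4* rose 105.5-fold, *PAG2*, a pregnancy-associated glycoprotein of the ruminant placenta, 30.3-fold, *PLAC8* 26.0-fold on a probe whose pool spot was saturated on 3 arrays, and *PAG6* 20.9-fold. Other probes gave 1.41-fold to 37.0-fold for *PLAC8*, 4.21-fold to 29.3-fold for *PAG2* and 1.43-fold to 5.77-fold for *PAG6*. The glycoproteins of this family are related in sequence, and some of their probes may share signal. Between TE and ICM, *PAGE4* (2.18-fold) and *PAG2* (2.12-fold) were the only products called higher in TE, where 0.231% of all genes were. The keratin gene *KRT7* was 3.40-fold lower in TE (adjusted p = 0.0285), where 1.33% of all genes were, and both of its probes were called. Short of the call, 12 of the 19 products had an unadjusted p under 0.05. Of these, 11 were higher in TE and 1 lower, against 11.4% and 10.4% of all genes. The median log2 difference of the products was 0.64, against -0.01 over all genes. The 4 calls made between TE and ICM in all these lists, *ID1*, *PAGE4*, *PAG2* and *KRT7*, fell to 0 without the second ICM or the second TE sample and to 1 without the first of either. *ASCL2* also drives Wnt-responsive stem cell genes in the mouse intestine. Of the 8 such genes measured, 0 were called in either comparison by limma or the F2 test, where limma called 17.4% and 1.56% of all genes. At an unadjusted p under 0.05 there were 2 from morula to blastocyst, against 48.7% of all genes, and 1 between TE and ICM, against 21.8%.

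The genes whose levels ran closest to *GATA3* over the 8 samples, by Euclidean distance between dye-corrected, centred log2 ratios among 12552 genes, were *MAL2*, a membrane trafficking protein (0.455), *SH3BP5* (0.464), *CD48*, a cell surface immunoglobulin (0.514), the methyltransferase *METTL13* (0.519) and *AKTIP* (0.528). Those closest to *ASCL2* were *ARSA*, the lysosomal arylsulfatase A (0.314), *FUCA2*, a fucosidase (0.385), *DENND1A*, an activator of a Rab GTPase (0.474), *LMO1*, a LIM-only transcription cofactor (0.516), and *LIMA1*, an actin-binding protein (0.521). The 8 samples share 1 pool, and the distances are a description of 4 groups of 2. They rest on the brightest probes. From morula to blastocyst the second probes stayed under 2-fold for *SH3BP5* (1.11), *AKTIP* (1.95), *ARSA* (1.195), *FUCA2* (1.52) and *DENND1A* (1.22). Those of *MAL2* (4.11), *METTL13* (3.66) and *LIMA1* (9.43) rose more. *MAL2* was at -2.34 and -2.40 in morulae and 0.36 and 0.50 in TE, and *ARSA* at -3.62 and -4.21 and at 0.64 and 0.62. *GATA3* and *ASCL2* were 2.41 apart: 346 other genes ran closer to *ASCL2* than *GATA3* did, and 2524 closer to *GATA3* than *ASCL2* did.

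**Figure D5:**
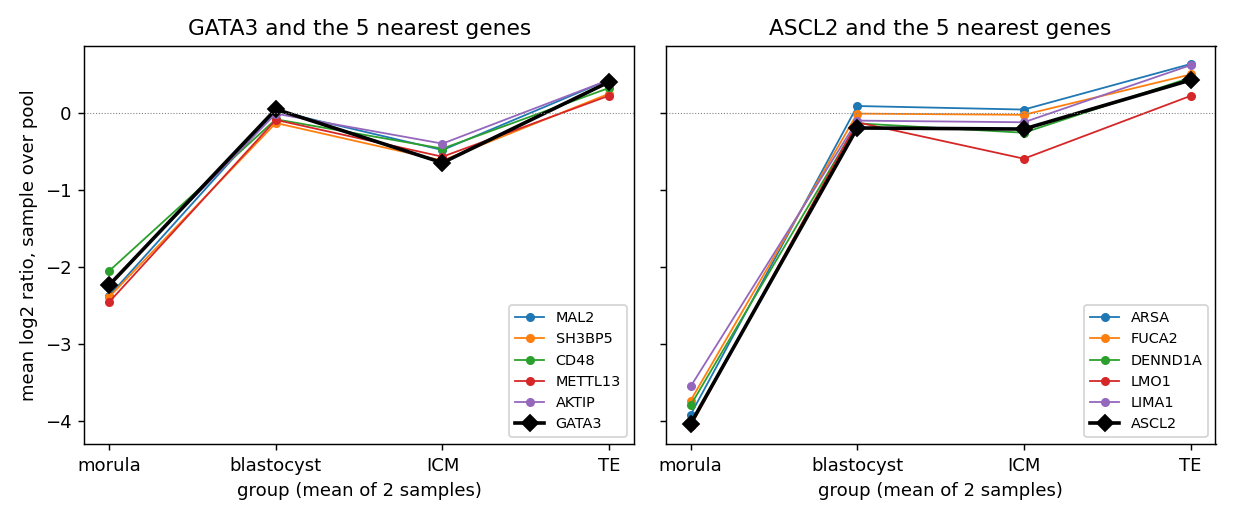
Mean log2 ratio to the blastocyst pool (y axis) in the 4 groups (x axis, mean of 2 samples) for *GATA3* (left) and *ASCL2* (right) in black and the 5 genes of nearest pattern in colour. The *GATA3* group starts near -2.24 in morulae and has its second lowest value in ICM, and the *ASCL2* group starts near -4.03.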

How the data were processed

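The deposited intensity of a spot is its mean pixel value in either channel, read by the authors with Imagene 8.0 and left without normalization, with the local background given separately. The log2 values deposited by the authors, ratios of sample over pool after their own normalization, served as an alternative. Of 45220 spots, 1567 control spots were left out. With R 4.3.3 and limma 3.58.1, loess was run on the mean intensities of each array, without background subtraction, and group means with a dye term, equal to the replicate number and hence the replicate block, were fitted to all 43653 gene probes on 8 arrays, with 3 residual degrees of freedom. P-values are two-sided and Benjamini-Hochberg adjusted over all gene probes of a comparison, and a gene is called at an adjusted p under 0.05 with a difference of 2-fold or more. A gene is represented by its brightest probe, whereas the study took the probe nearest the 3' end, since probe positions were not used here. Gene names came from the platform annotation, which gave 27952 probes 1 symbol each, for 12552 genes, and the other probes no symbol. Same-numbered samples deviated together (correlations of replicate differences 0.20 to 0.49), but number and dye cannot be told apart. P-values measure the spread between pools only, and the number of arrays limits the precision.

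The genes, lists and tests were chosen with earlier results of these data known. Named are all probes of both genes, up to 4 called genes of largest difference and the 2 brightest uncalled genes in each list, any member of a list of at most 12 measured genes, the 5 genes of nearest pattern, and the markers. Outside this rule, *ELF5* and *OVOL1* and the comparisons of ICM with morula were named after their values were seen. The fit was tested on simulated data. Figures were drawn with matplotlib 3.10.9 in Python 3.11.15 (numpy 2.4.6, pandas 2.3.3). Sequences and motifs were not analysed here.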

Additional observations from a re-analysis of the deposited data

How the results depend on the processing

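With 2 samples in each group and 3 residual degrees of freedom, differences near 2-fold could not be settled, and a dim spot such as that of *ASCL2* in morulae has an uncertain level. The calls of *ASCL2* against morula kept their direction and side of the threshold under all 19 alternatives (blastocyst minus morula 2.63 to 4.16, adjusted p 6.83e-06 to 0.00965). For the GATA3 comparisons, putting the dimmer probe in place of the brighter one, an alternative chosen after seeing the data, ended the calls for blastocyst minus morula (0.23, adjusted p = 0.510), TE minus morula (0.17, adjusted p = 0.612) and ICM minus morula (0.22, adjusted p = 0.501), and turned TE minus ICM to -0.0514 (adjusted p = 0.973) and TE minus blastocyst to -0.0555 (adjusted p = 1.00). The mean over both probes left 0.90 for ICM minus morula, under 2-fold, and 0.50 for TE minus ICM (adjusted p = 0.0688).

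The GATA3 TE minus ICM call was also lost with normexp (1.01, adjusted p = 0.207), in the fit to the 4 arrays compared (1.05, adjusted p = 0.0748) and without the replicate block (1.05, adjusted p = 0.120). The block changed no other call of *GATA3* or *ASCL2*. Leaving out 1 array gave 0.70 to 1.39 for *GATA3* (adjusted p 0.0486 to 0.312). The call was kept with median centring (adjusted p = 0.0308), the deposited log2 values (0.0339) and the methods' own F2 test with 100 shuffles of the residuals (0.00471). The cause was not tested.

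ASCL2 ICM minus blastocyst, near 0, turned to 0.0013 with normexp and ranged from -0.16 to 0.14 with 1 array left out. The differences of the dimmer GATA3 probe, none of them called, changed sign with median centring (TE minus ICM 0.0323, ICM minus morula -0.0162), with normexp (ICM minus blastocyst 0.0156) and with the deposited log2 values (ICM minus blastocyst 0.0464). With 1 array left out they ranged from -0.18 to 0.63 for blastocyst minus morula, -0.21 to 0.11 for TE minus ICM, -0.23 to 0.57 for TE minus morula, -0.18 to 0.63 for ICM minus morula, -0.18 to 0.0703 for TE minus blastocyst and -0.16 to 0.15 for ICM minus blastocyst.

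Over all gene lists together, 20 of 87 genes were called between blastocyst and morula, 34 with a 1.5-fold minimum and 42 with none. Of all 12552 genes, 17.4% were called in this comparison and 1.56% between TE and ICM. Between TE and ICM 4 were called, 13 with a 1.5-fold minimum or with none, 8 with median centring, 2 without the replicate block, 0 with normexp, and 0 to 5 with 1 array left out (0 without ICM replicate 2 or TE replicate 2, 1 without ICM replicate 1 or TE replicate 1). Over all genes, the 196 TE minus ICM calls became 28 with normexp, 114 with the mean over probes, 509 with a 1.5-fold minimum, 555 with none and 17 to 215 with 1 array left out. The 2178 blastocyst minus morula calls became 1412 with the mean over probes, 3811 with a 1.5-fold minimum and 5002 with none. For TE minus morula 2543 calls became 4257 and 5594 with these fold minimums, and for ICM minus morula 2096 became 3854 and 5088, and 1366 with the mean over probes. The 6 TE minus blastocyst calls ranged from 0 to 58 and the 13 ICM minus blastocyst calls from 0 to 76 over the alternatives.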
